A study of Homo sapiens with 6 samples.

Results

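The 8 genes of the human condensin complexes and NCAPD2P1, a pseudogene copied from one of them, were examined in CAOV2 cells, a human ovarian cancer cell line, by poly(A) RNA-seq. These 9 genes, of 17211 listed in the deposited table, were chosen by name and with their siYAP against siNT values in view, so that contrast is given for them as a description and not as a test. One group of 3 libraries came from cells transfected with a non-targeting control siRNA (AllStars Negative Control; siNT) and the other, also of 3 libraries, from cells transfected with an siRNA reagent against YAP (Dharmacon; siYAP). Both groups were grown in DMEM with heat-inactivated fetal bovine serum and given 100 pmol of siRNA with a lipid reagent for 2 days, and were collected at day 3. The labels record no drug and no engineered allele in either group. CAOV2 is listed there as a cell line and in the titles as primary ovarian cancer cells. The labels call the libraries biological replicates without saying what was repeated, so the spread between libraries may be technical. The control and the YAP reagent are different products, so the loss of YAP and any other effect of either reagent cannot be told apart.

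Condensins are ring-shaped ATPase complexes that extrude and hold loops of DNA, and they compact chromosomes for mitosis. Both condensin I and condensin II are built on the same pair of coiled-coil ATPases, SMC2 and SMC4. Each adds its own kleisin, which bridges the ATPase heads (NCAPH in condensin I, NCAPH2 in condensin II), and its own pair of HEAT-repeat subunits (NCAPD2 and NCAPG, or NCAPD3 and NCAPG2). Condensin II is in the nucleus throughout the cell cycle, and condensin I reaches the chromosomes after the nuclear envelope breaks down. NCAPD2P1 is a processed pseudogene, which is a copy of a spliced messenger RNA that was inserted back into the genome.

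The libraries held between 25478595 and 31790340 reads over the listed genes. YAP1 itself was at 5992 ± 213 normalized counts in siNT and 299.6 ± 24.7 in siYAP (SD, n = 3), or 5.00% of the control level. A normalized count is a read count divided by the authors' size factor for that library. Of 9 epithelial and ovarian carcinoma markers, the keratins KRT7, KRT8, KRT18 and KRT19 were abundant, whereas PAX8 lay between 13.3 and 44.9 and MUC16 between 8.38 and 19.0 normalized counts in the 6 libraries. WT1 matched no listed gene. Members of this list went opposite ways: KRT7, KRT18 and KRT19 were called lower in siYAP, at 51.1%, 62.2% and 81.8% of control, and EPCAM and CDH1 were called higher, at 167.3% and 191.1%, while KRT8, PAX8 and MUC16 were not called. The summed level of 3 measured immune markers was 142.6 to 144.5 in siNT and 62.5 to 71.3 in siYAP. PTPRC and CD3E, which define leukocytes and T cells, matched no listed gene. The sum of 5 measured fibroblast markers was 4592 to 5331 in siNT and 13060 to 13560 in siYAP, with 3 of the 5 higher (COL3A1, LUM and PDGFRB) and 2 lower (COL1A1 and COL1A2). DCN matched no listed gene. The 1 measured endothelial marker, ESAM, had 1673 to 1873 normalized counts in siNT and 1261 to 1338 in siYAP, and PECAM1, VWF and CDH5 matched no listed gene. The part of these marker differences in the values below was not tested.

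Genes of the subunits that are particular to one of the 2 condensins were lower in siYAP, while those of the shared ATPases were not called. Of the 9 genes, 7 were called by the fit over all genes (limma, adjusted p under 0.05 over 17200 tested genes), beside 56.8% of all tested genes. All 6 genes of the non-SMC subunits were called lower, as were 28.1% of all tested genes. None of them was lower by as much as 2-fold, which 2.55% of all tested genes were. NCAPH stood furthest from its control level, at 65.1%, and the other 5 lay between 78.5% and 83.8%. SMC2 was at 102.3% and SMC4 at 98.4%. The median log2 change of the 8 condensin genes was -0.29, beside 0.00 for all tested genes. In these bulk libraries, fewer cells of a kind that expresses these genes and less of the RNAs per cell cannot be told apart.

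NCAPD2 (ENSG00000010292, GRCh38 chr12:6493356-6531955, plus strand), the HEAT-repeat subunit of condensin I from which the pseudogene was copied, had 10006, 10251 and 10548 normalized counts in the siNT libraries. The siYAP libraries had 8368, 8104 and 8145. Every siYAP library lay below every siNT library, and the spread within each group was small beside the gap. The means were 10270 ± 271 and 8206 ± 142 (SD, n = 3), a log2 change of -0.32 with a standard error of 0.0407.

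NCAPG (ENSG00000109805, chr4:17810902-17844862, plus strand), the second HEAT-repeat subunit of condensin I, had 3733, 3489 and 3405 normalized counts in siNT and 2909, 3017 and 2983 in siYAP. The groups did not overlap, although the highest siYAP library was nearer to the lowest siNT library than for the other 2 condensin I genes. The log2 change was -0.25 with a standard error of 0.0470, the smallest of the 6 non-SMC genes.

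NCAPH (ENSG00000121152, chr2:96335787-96373845, plus strand) encodes the kleisin of condensin I. Its siNT libraries were nearly equal, at 3378, 3356 and 3379 normalized counts, and its siYAP libraries were at 2148, 2236 and 2196. The control spread was 12.7 (SD, n = 3) around a mean of 3371, and the log2 change was -0.62 with a standard error of 0.0448. Of the 17200 tested genes, 1405 had a lower log2 change than NCAPH.

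The 3 condensin II genes were lower to a like degree. NCAPD3 (ENSG00000151503, chr11:134150119-134225454, minus strand), a HEAT-repeat subunit, had 4363, 4231 and 4291 normalized counts in siNT and 3384, 3391 and 3345 in siYAP (log2 -0.35, standard error 0.0429). NCAPG2 (ENSG00000146918, chr7:158631311-158704829, minus strand), the other HEAT-repeat subunit, had 5706, 5313 and 5432 in siNT and 4409, 4448 and 4480 in siYAP (log2 -0.30, standard error 0.0435). In both genes the groups were well apart.

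NCAPH2 (ENSG00000025770, chr22:50508216-50523472, plus strand), the kleisin of condensin II, had 2081, 2417 and 2199 normalized counts in siNT and 1805, 1953 and 1781 in siYAP. It had the widest spread of the 6 in relation to its level, with siNT replicate 2 high and siYAP replicate 2 nearest to the controls, yet the groups did not overlap. The log2 change was -0.27 with a standard error of 0.0565.

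SMC2 and SMC4, the ATPases that both complexes need, overlapped between groups. SMC2 (ENSG00000136824, chr9:104094260-104141417, plus strand) had 2636, 2494 and 2497 normalized counts in siNT and 2515, 2570 and 2719 in siYAP. SMC4 (ENSG00000113810, chr3:160399274-160434962, plus strand) had 6056, 5415 and 5561 in siNT and 5387, 5554 and 5811 in siYAP. The siYAP libraries of both genes lay within or close to the range of the controls.

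The log2 change of SMC2 was 0.03, with a 95% interval of -0.07 to 0.13, and that of SMC4 was -0.02, with an interval of -0.12 to 0.08. Changes of up to about these bounds could be present. With libraries rescaled to equal totals, SMC2 was called higher (log2 0.12, limma adjusted p = 0.0394). That rescaling moved the median of all genes from 0.00 to 0.09 and the share of called genes that were higher from 50.4% to 62.1%. Groups that do not overlap were seen in 7 of the 9 genes and in 61.5% of all tested genes. The siYAP libraries were the lower ones in 6 of the 7 (30.6% of all tested genes) and the higher ones in NCAPD2P1 (30.9%).

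**Figure D1:**
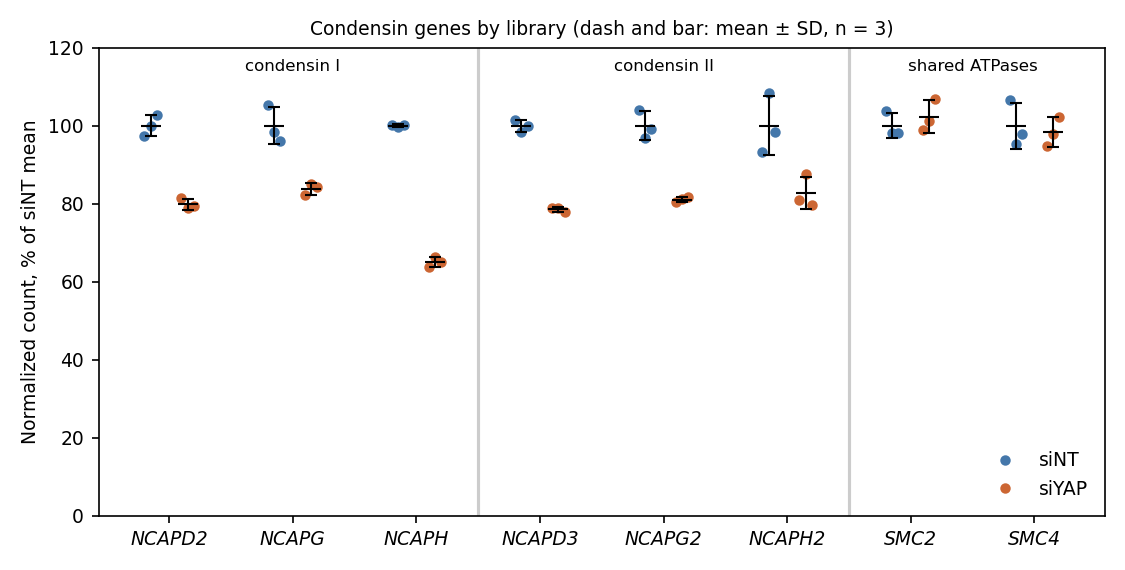
Normalized counts of the 8 condensin genes as a percentage of each gene's siNT mean (vertical axis, from 0), by gene. Points are libraries (blue siNT, orange siYAP) and dashes with bars are the mean and SD of 3 libraries. The siYAP points lie below all siNT points for the 6 non-SMC genes, with NCAPH lowest at 65.1%, and the groups overlap for SMC2 and SMC4.

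The plot of the 8 genes by library shows the pattern gene by gene, and the balance between the groups of subunits shows it within each library. The mean log2 value of the 6 non-SMC genes less that of the 2 ATPase genes was 0.114, 0.234 and 0.203 for siNT replicates 1 to 3, and -0.137, -0.142 and -0.245 for those of siYAP. Every siYAP library was thus below every control library in this balance. These values are not scaled to gene length, so their sign says nothing about which genes had the higher level. The mean log2 value of the condensin I genes less that of the condensin II genes was 0.428, 0.381 and 0.414 in siNT and 0.319, 0.297 and 0.333 in siYAP. That second difference moved by less than the first, by -0.09 against -0.36. The ratio of SMC4 to SMC2 normalized counts was 2.23 ± 0.0636 in siNT and 2.15 ± 0.0127 in siYAP (SD, n = 3). These balances come from the contrast that was in view when the genes were chosen, and they carry no test.

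Levels were compared between genes per kilobase of 1 annotated transcript (a principal isoform by its APPRIS tag, the longest where several had the tag), within each group. In siNT, NCAPD2 was highest, at 1851 normalized counts per kilobase, followed by NCAPG2 (1386), NCAPH (1220), NCAPH2 (1096), SMC4 (1038), NCAPD3 (848.7), NCAPG (760) and SMC2 (424). Only the neighbours NCAPH2 and SMC4 overlapped over the 3 libraries. In siYAP, the order per kilobase of transcript was NCAPD2 (1479), NCAPG2 (1123), SMC4 (1021), NCAPH2 (906.5), NCAPH (793.8), NCAPD3 (666.6), NCAPG (637.1) and SMC2 (434.1), with no neighbours overlapping. On this length NCAPH stood above NCAPH2 and SMC4 in the control order and below both in the siYAP order.

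The middle of that order depends on the length used. Per kilobase of the gene's longest coding sequence in siNT, NCAPD2 was again highest (2443) and SMC2 again lowest (708), but SMC4 (1469) and NCAPH2 (1228) changed places, and NCAPG (1163) moved above NCAPD3 (955.7). The libraries of NCAPH (1516) and SMC4 overlapped on that scale, as did those of NCAPH2 and NCAPG. In siYAP the coding order was NCAPD2 (1952), SMC4 (1445), NCAPG2 (1282), NCAPH2 (1016), NCAPH (986.6), NCAPG (975.3), NCAPD3 (750.7) and SMC2 (724.4). There NCAPH overlapped both NCAPH2 and NCAPG, and NCAPD3 overlapped SMC2, so the place of NCAPH below NCAPH2 does not hold beyond the spread on this length. SMC2 has the longest chosen transcript, of 5992 bases, and its longest annotated coding sequence has 3591. Reads from shorter transcripts of a gene are counted with it, so these levels rest on the assumption that the chosen transcript is the main one.

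NCAPD2P1 differed from all the condensin genes: it was low in the control and abundant in siYAP. It (ENSG00000230356, GRCh38 chr7:34750253-34752053, minus strand) had 147.6, 161.4 and 161.9 normalized counts in the siNT libraries. The siYAP libraries had 2352, 2200 and 2244. No siYAP library came near a control library, and replicates within a group differed by little.

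The means of NCAPD2P1 were 157 ± 8.10 and 2265 ± 78.5 normalized counts (SD, n = 3), which is 14.4-fold higher in siYAP, with a log2 change of 3.84 and a standard error of 0.0666. These values rest on 134 to 151 whole reads per siNT library and 2229 to 2596 per siYAP library. Only 25 of the 17200 tested genes had a higher log2 change. The fit called 28.6% of all tested genes higher, and 6.31% were called and at least 2-fold higher.

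The sequence shows how far reads of the pseudogene and of its parent can be told apart. NCAPD2P1 is annotated as a single exon of 1801 bases. Of these, bases 9 to 1801 align to bases 3208 to 5002 of the NCAPD2 transcript (5548 bases, GENCODE 29), which is the last part of its coding sequence and ends at its last annotated coding base. The aligned part of NCAPD2 crosses 13 exon junctions. Over 1799 alignment columns the sequences were 92.3% identical, with 128 mismatches, of which 100 were transitions. In 32 of the mismatches a C or G of a CpG in NCAPD2, which has 49 CpGs there, was replaced by T or A. The 6 gaps held 4 inserted and 6 deleted bases, and 4 of the 6 had lengths that are not a multiple of 3.

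Stretches of the alignment are shown because they give the range of this likeness, with capitals marking the bases that differ. Both lie in the coding part of NCAPD2, have 120 bases and hold no gap. In the stretch with the fewest differences, NCAPD2 bases 3579 to 3698 and NCAPD2P1 bases 379 to 498 differ at 2 positions:
NCAPD2: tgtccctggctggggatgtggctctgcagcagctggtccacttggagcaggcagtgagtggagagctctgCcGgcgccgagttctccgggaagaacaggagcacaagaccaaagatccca
NCAPD2P1: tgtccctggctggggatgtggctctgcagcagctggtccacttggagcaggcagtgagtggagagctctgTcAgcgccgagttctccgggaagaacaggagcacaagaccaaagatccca
In the stretch with the most differences, NCAPD2 bases 4436 to 4555 and NCAPD2P1 bases 1235 to 1354 differ at 16 positions:
NCAPD2: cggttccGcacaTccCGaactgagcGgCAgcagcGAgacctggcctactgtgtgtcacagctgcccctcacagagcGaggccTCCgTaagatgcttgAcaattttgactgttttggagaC
NCAPD2P1: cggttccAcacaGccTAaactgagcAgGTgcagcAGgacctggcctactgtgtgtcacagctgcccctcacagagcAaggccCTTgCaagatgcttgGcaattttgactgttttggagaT

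The longest run without a difference was 70 bases, beginning at base 379 of NCAPD2P1, in the first stretch printed above. Of all windows of 50 bases in NCAPD2P1, 67 of 1752 (3.82%) occur unchanged in an annotated NCAPD2 transcript. Of windows of 75 bases, 0 of 1727 do. In windows of 50 alignment columns, identity ranged from 82.0% to 100%, with a median of 92.0%. Neither the read length nor the handling of reads with several matches was stated in the sources used here, so the counts of NCAPD2 and NCAPD2P1 are uncertain to the extent that reads were placed on the wrong copy.

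**Figure D2:**
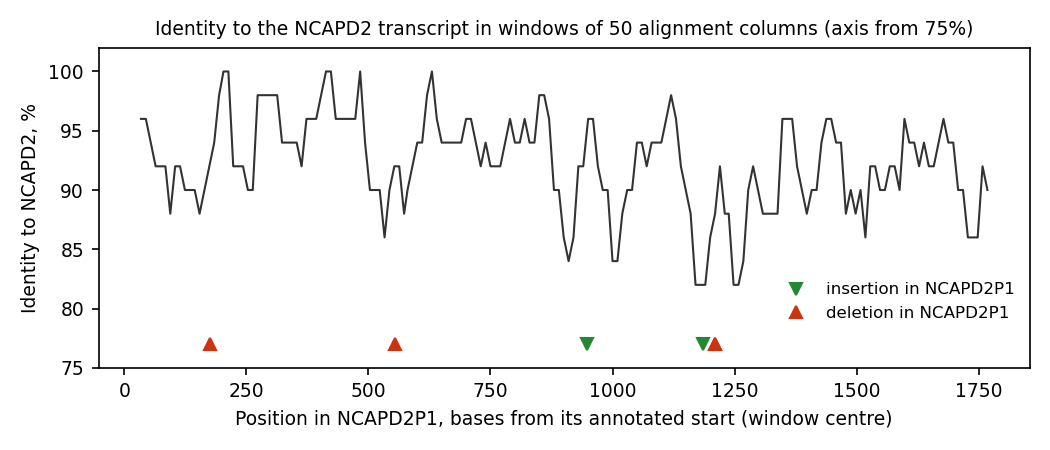
Identity of NCAPD2P1 to the NCAPD2 transcript (vertical axis, percent, drawn from 75%) in windows of 50 alignment columns, by position in the pseudogene in bases. Triangles mark the 6 insertions and deletions, of which a pair of deletions near base 1210 coincide. Identity falls to 82.0% in the lowest windows and reaches 100% in 6 of 175 windows.

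Set against its parent in the same library, the pseudogene was at 1.48%, 1.57% and 1.53% of the NCAPD2 normalized count in siNT. In siYAP it was at 28.1%, 27.1% and 27.5%. The percentage was close to constant within each group, with means of 1.53% ± 0.0498 and 27.6% ± 0.482 (SD, n = 3). The mean percentage was 18.1-fold higher in siYAP. Per kilobase of annotated transcript the pseudogene was at 4.71% ± 0.154 of NCAPD2 in siNT and at 85.0% ± 1.49 in siYAP (SD, n = 3). These percentages depend on the length used for NCAPD2, since the pseudogene aligns to coding sequence alone. Per kilobase of coding sequence NCAPD2 had 2443 normalized counts in siNT and 1952 in siYAP, beside 87.2 and 1258 per kilobase for the pseudogene.

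The difference in NCAPD2P1 was about as large in counts as that in NCAPD2 and of opposite sign, an observation made after the values were seen. The sum of both genes was 10154, 10412 and 10710 normalized counts in siNT and 10720, 10304 and 10389 in siYAP. The groups overlapped in this sum, whereas they did not in either gene alone. The mean of the sum was 10430 ± 278 in siNT and 10470 ± 220 in siYAP (SD, n = 3). Whether reads passed from one gene to the other between groups was not tested, since no alignments were used here.

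NCAPD2P1 lies inside 2 longer genes. NPSR1-AS1, a long non-coding RNA gene on the same strand (chr7:34346512-34871582), and NPSR1, which encodes the neuropeptide S receptor on the opposite strand (chr7:34658239-34878332), both span it. No annotated exon of either overlaps it, so it is intronic to both. On its own strand, the nearest NPSR1-AS1 exons lie 6.02 kb before its start and 21.4 kb beyond its end.

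**Figure D3:**
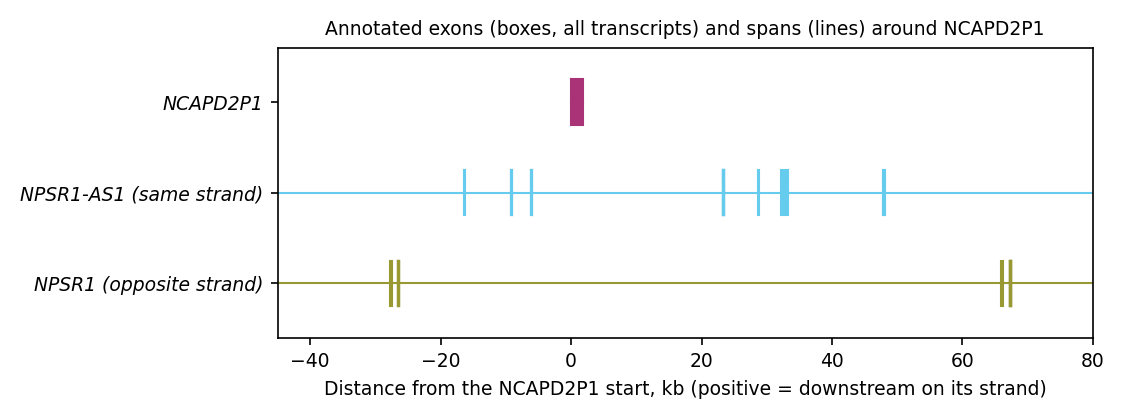
Annotated exons (boxes) and gene spans (lines) around NCAPD2P1, by distance from its start in kb, with positive values downstream on its strand. NCAPD2P1 falls between exons of NPSR1-AS1 and of NPSR1, and no exon of either touches it.

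NPSR1-AS1 was also higher in siYAP, but at a far lower level. It had 4.19, 4.28 and 2.42 normalized counts in siNT and 21.7, 19.7 and 19.97 in siYAP, from 2 to 4 reads and 20 to 24 reads per library. Its log2 change was 2.24 (standard error 0.366, limma adjusted p = 1.76e-05), and the groups did not overlap. In siYAP the pseudogene thus had at least 2200 normalized counts in every library, and the annotated exons of the gene that spans it had at most 21.7. NPSR1 is not among the listed genes.

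Further listed genes on both sides of NCAPD2P1 lie at some distance. DPY19L1, a probable C-mannosyltransferase gene 176.8 kb away, had 4292, 3705 and 3828 normalized counts in siNT and 3648, 3773 and 3750 in siYAP and was not called (log2 -0.08, limma adjusted p = 0.197). BMPER, a regulator of BMP signalling 593.9 kb away, was higher by 0.64 on the log2 scale (limma adjusted p = 0.00377) at 36.3 to 72.3 normalized counts. HERPUD2, 880.6 kb away, was called higher by 0.44 on the log2 scale (limma adjusted p = 6.72e-07), and HERPUD2-AS1, 943.2 kb away, was not called. None of these genes came near the change of NCAPD2P1.

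**Figure D4:**
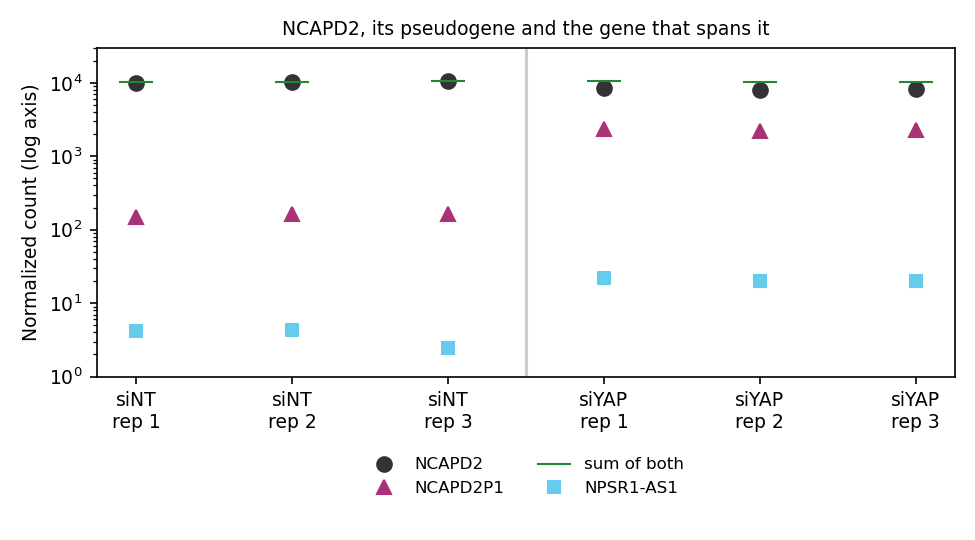
Normalized counts (log axis) of NCAPD2, NCAPD2P1, their sum and NPSR1-AS1 in each of the 6 libraries. NCAPD2P1 has 147.6 to 161.9 in siNT and 2200 to 2352 in siYAP, while the sum with NCAPD2 stays between 10154 and 10720.

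Most processed pseudogenes of the table behaved otherwise. Of 724 tested, the fit called 18.9%, with 42 higher (5.8%) and 95 lower (13.1%), and 1.8% were called and at least 2-fold higher, as NCAPD2P1 was. For all 724, the median log2 change was -0.14. NCAPD2P1, with 87.2 normalized counts per kilobase in siNT and 1258 in siYAP, had the highest log2 change of them. In siNT, 38 of them had a higher mean than NCAPD2P1, and in siYAP 2 did. The median processed pseudogene had a mean of 14.1 normalized counts in siNT and 12.7 in siYAP, so that few of them could be measured as closely as NCAPD2P1.

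A total of 542 processed pseudogenes carry the name of a listed protein-coding gene followed by P and a number, with 333 different parents. The log2 change of the pseudogene less that of its parent had a median of 0.03, and its 5th and 95th percentiles were -0.69 and 1.05. For NCAPD2P1 and NCAPD2 the difference was 4.17, the highest of the 542, and the next highest was 2.25, for C4orf46P2, which had a mean of 6.73 normalized counts. Among the 47 pairs whose pseudogene had a mean of at least 100, a limit set after seeing the data, the next highest difference was 1.12. Pairs that share a parent are not independent, and these ranks describe a gene that was chosen with its value in view.

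**Figure D5:**
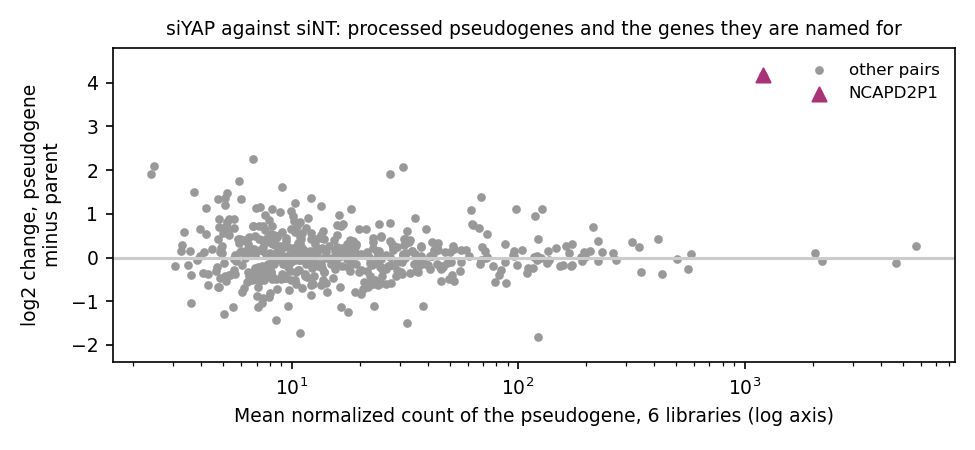
Log2 change of each of 542 processed pseudogenes less that of its parent gene (vertical axis), by the mean normalized count of the pseudogene over 6 libraries (log axis). NCAPD2P1 (triangle) is at 4.17, and all other pairs lie between -1.81 and 2.25.

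The genes with library profiles closest to those of NCAPD2 and NCAPD2P1 were found by the root mean square difference of 6 log2 values, each taken relative to the gene's own siNT mean. For NCAPD2 these were UBQLN4, a ubiquilin gene (difference 0.0127), DDX23, a helicase gene of the spliceosome (0.0149), and CLN6, a gene of an endoplasmic reticulum membrane protein (0.0152), all at about 80% of control in siYAP. For NCAPD2P1 they were ASGR2, a subunit of the hepatocyte asialoglycoprotein receptor (0.0975), ALDH1A1, a retinaldehyde dehydrogenase (0.157), and MEP1A, a subunit of the intestinal and renal metalloprotease meprin (0.170). ALDH1A1 had 208.4, 240.5 and 188.5 normalized counts in siNT and 2693, 2722 and 2823 in siYAP, and its log2 change was 3.69. MEP1A went from 42.5 ± 6.66 to 702.8 ± 4.29 (SD, n = 3). ASGR2 was at 2.09 to 2.42 normalized counts in siNT, which is 2 reads per library, so its likeness to NCAPD2P1 is the least certain. It met the limit of a mean of at least 20 only through siYAP, where its mean was 41.3. Adding 1 before the log also lowers its change: it was 18.6-fold higher by plain means, against 14.4-fold for NCAPD2P1. Its place as the closest profile therefore depends on that scale. With 6 libraries in 2 groups, such likeness mostly reflects a like change between groups.

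Promoters of the condensin genes are shown because the 6 non-SMC genes were lower together. RefSeq windows of 300 bases that span an annotated start, most of each lying before it (GRCh38.p14), were at hand for 7 of the 9 genes in 10 windows. No window was at hand for NCAPH2 or NCAPD2P1, so their motifs were not examined. The windows of NCAPD2, NCAPG, NCAPH and SMC4 (the first of its 2 windows) are printed. Capitals mark matches, on either strand, to any of 4 motifs: the cell cycle homology region (CHR; TTTGAA or TTCGAA), which the DREAM and MuvB complexes bind; E2F-like sites (TTGGCGC or TTCCCGC or TTGGCGG or TTCGCGC); the CCAAT box; and the M-CAT box bound by TEAD factors (GGAATG). No matches of different motifs overlapped in these windows. NCAPD2 is at chr12:6493852-6494151, NCAPG at chr4:17810729-17811028, NCAPH at chr2:96335516-96335815 and SMC4 at chr3:160399400-160399699, all on the plus strand:
NCAPD2: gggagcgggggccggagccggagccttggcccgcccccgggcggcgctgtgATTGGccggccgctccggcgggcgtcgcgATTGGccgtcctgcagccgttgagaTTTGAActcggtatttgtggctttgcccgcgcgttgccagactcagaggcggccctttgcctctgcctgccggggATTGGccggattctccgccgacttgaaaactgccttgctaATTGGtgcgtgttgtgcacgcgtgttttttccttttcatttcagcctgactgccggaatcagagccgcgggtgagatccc
NCAPG: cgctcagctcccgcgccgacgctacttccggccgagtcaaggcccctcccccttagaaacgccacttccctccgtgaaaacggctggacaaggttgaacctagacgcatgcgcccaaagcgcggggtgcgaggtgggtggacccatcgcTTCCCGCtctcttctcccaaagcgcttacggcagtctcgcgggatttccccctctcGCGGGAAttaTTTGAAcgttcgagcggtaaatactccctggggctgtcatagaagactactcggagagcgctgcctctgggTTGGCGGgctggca
NCAPH: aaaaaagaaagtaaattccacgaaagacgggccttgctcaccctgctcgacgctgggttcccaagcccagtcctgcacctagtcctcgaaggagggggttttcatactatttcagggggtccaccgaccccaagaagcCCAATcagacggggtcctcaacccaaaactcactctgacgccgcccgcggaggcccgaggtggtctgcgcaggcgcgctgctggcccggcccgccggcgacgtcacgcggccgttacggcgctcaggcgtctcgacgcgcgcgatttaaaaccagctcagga
SMC4: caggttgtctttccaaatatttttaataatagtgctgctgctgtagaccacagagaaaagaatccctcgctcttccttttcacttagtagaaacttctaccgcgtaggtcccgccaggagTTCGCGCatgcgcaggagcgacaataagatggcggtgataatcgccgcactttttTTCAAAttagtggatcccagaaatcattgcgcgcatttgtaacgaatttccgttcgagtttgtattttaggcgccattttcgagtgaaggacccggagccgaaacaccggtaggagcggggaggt

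A CHR motif was found in 6 of the 10 windows, against 16.4% of all 35116 RefSeq windows of this length. These 6 windows belong to NCAPD2, NCAPD3, NCAPG, NCAPG2, SMC2 and SMC4. The NCAPH window has no match to TTTGAA or TTCGAA, and other forms of the motif were not searched. Whether the motif bears on the changes in these genes was not tested. An E2F-like match was found in 3 windows (NCAPD3, NCAPG and SMC4; 13.8% of all windows) and a CCAAT box in 3 (NCAPD2, NCAPD3 and NCAPH; 34.6%). In NCAPG, an E2F-like match begins 45 bases before the start and the CHR match 35 bases before it. The NCAPD2 window printed above holds 4 CCAAT boxes. M-CAT was found only in the second SMC4 window, against 14.0% of all windows. A match is a string of letters, and these counts carry no test.

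Several condensin genes overlap other listed genes on the opposite strand, taking whole gene spans with their introns. How many of the shared bases are exonic was not analysed. Reads from shared exonic bases can be told apart only if the counting used strand, which is not stated. NCAPD2 overlaps MRPL51, a mitochondrial ribosomal protein gene, over 486 bases at its 5′ end. MRPL51 was lower too (log2 -0.38, limma adjusted p = 1.04e-07). NCAPG overlaps LCORL over 3664 bases, and LCORL went the other way, from 317.3, 293.9 and 297.3 to 454, 481.7 and 520.3 normalized counts. NCAPD3 overlaps VPS26B over 810 bases, and SMC4 overlaps IFT80 over 607 bases and TRIM59 over 2518. VPS26B was called lower (log2 -0.13, limma adjusted p = 0.0255), IFT80 higher (log2 0.67, limma adjusted p = 9.8e-05), and TRIM59 was not called. IFT80 and TRIM59 had at most 303.4 and 453.7 normalized counts, well under SMC4.

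Genes that act on condensin or beside it were mostly lower as well. Of 24 kinases, phosphatases and chromosome partners of condensin, 16 were lower, 2 were higher and 6 were not called, with a median log2 change of -0.30. The shares over all tested genes were 28.1% lower and 28.6% higher. INCENP, the scaffold of the chromosomal passenger complex, was lowest, at 4704, 4959 and 5063 normalized counts in siNT and 2893, 2843 and 2673 in siYAP (log2 -0.81, limma adjusted p = 2.68e-12). CDCA8, another subunit of that complex, was lower by 0.75 on the log2 scale (limma adjusted p = 5.78e-12), and BUB1, a mitotic checkpoint kinase, by 0.56 (limma adjusted p = 3.62e-10). AURKB, the kinase of the passenger complex, and CDK1 and PLK1, which phosphorylate condensin, were at 76.2%, 84.4% and 70.4% of control. The chromosome scaffold genes TOP2A and KIF4A were at 82.4% and 80.3%, close to the condensin genes, whereas MKI67 was at 98.4% and not called. The 2 higher genes were TOP2B (130.7%) and RB1 (143%).

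The other SMC complexes followed no single direction. Over all tested genes, 28.1% were lower and 28.6% higher, and the counts of both lists below are near these shares or too small to tell from them. Of 18 genes of cohesin and its loading and release factors, 6 were lower, 4 higher and 8 not called, with a median log2 change of -0.04. The core subunits SMC1A, SMC3 and RAD21 were not called, at 100.7%, 93.9% and 98.2% of control, as SMC2 and SMC4 were not. Of the STAG subunits, STAG2 was called lower, at 86.3% (log2 -0.21, limma adjusted p = 0.00123), and STAG1 was not called, at 96.0%. The lowest was CDCA5, which encodes sororin (log2 -0.72, limma adjusted p = 4.19e-12). ESPL1, which encodes separase (log2 -0.47, limma adjusted p = 1.96e-08), and PTTG1, which encodes securin (log2 -0.43, limma adjusted p = 2.67e-08), were next. SGO1 and ESCO2 were not called, at 89.4% and 104.8% of control. The 4 higher genes were ESCO1 (145.4%), HDAC8 (114.3%), WAPL (110.3%) and NIPBL (108.5%). Of 9 genes of the SMC5/6 complex, 3 were lower, 1 higher and 5 not called, with a median of 0.03. With libraries rescaled to equal totals, the cohesin list had 6 higher and 4 lower (median 0.05) and the SMC5/6 list 3 higher and 2 lower (median 0.12), so that the balance of directions in both depends on the scaling. SMC5 (log2 -0.27, limma adjusted p = 0.00123) and the RING subunit NSMCE1 (log2 -0.26, limma adjusted p = 0.00179) were lower. SLF1, a factor that recruits the complex (log2 -0.28, limma adjusted p = 0.00817), lost its call with libraries rescaled to equal totals (log2 -0.20, limma adjusted p = 0.0629).

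Factors that act at cell cycle promoters were lower in 14 of 22 cases, higher in 1 (LIN54) and not called in 7, with a median log2 change of -0.32. Under the alternative settings 12 to 15 were lower and 1 to 3 higher. The calls of E2F6 (limma adjusted p = 0.0417) and FOXM1 (limma adjusted p = 0.0438, groups overlapping) lay close to the threshold. E2F5, a repressive E2F, was at 1386, 1317 and 1286 normalized counts in siNT and 319.9, 318.8 and 335.7 in siYAP (log2 -2.03, limma adjusted p = 9.92e-17). E2F1 (log2 -0.88, limma adjusted p = 6.43e-12) and E2F2 (log2 -0.97, limma adjusted p = 9.54e-11), which are activating E2Fs, were lower by less. FOXM1 and MYBL2, activators of late cell cycle genes, were at 93.0% and 101.4% of control, and MYBL2 was not called. The lists were written with earlier results of these data known, and their counts stand beside 28.1% lower and 28.6% higher over all tested genes.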

How the data were processed

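The members and gene lists were chosen with earlier results of these data known. The deposited values are a signal: the submitters' processing notes name DESeq2, HTSeq, HISAT2 and FastQC, and the genome builds hg19 and mm9. Versions, annotation release, strand setting and gene filter: not given in the sources used here. Dividing each library's deposited values by 1 factor made 100% of them whole within 0.01 of a read, so they are taken as counts over size factors, and whole reads were recovered (25478595 to 31790340 per library).

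Values were fitted as log2(value + 1) with limma 3.58.1 (trend, robust) in R 4.3.3, for the 17200 of 17211 genes, all 9 members included, that reached 1 in 3 or more libraries. Group was the only term, and Benjamini-Hochberg adjusted p-values were called under 0.05. On this scale changes of low genes are understated. Symbols matched 16743 identifiers. Coordinates and transcripts are GENCODE 29 (GRCh38), matched by identifier. Other genes named were YAP1, up to 3 called members of each list by smallest p, the 3 nearest profiles (mean of at least 20) and overlapping genes; further genes were added after their values were seen. The NCAPD2P1 alignment used Biopython 1.88. The fit was tested on simulated data. Alternatives were other scalings, filters, pseudocount 0.1, no variance trend, edgeR 4.0.16 and DESeq2 1.42.0 on recovered reads, the replicate number as a block and each library left out. No pair of libraries in a group was a duplicate by its counts (chi-square 2.75 to 7.5 times its degrees of freedom).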

Additional observations from a re-analysis of the deposited data

How the results depend on the processing

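Of the 9 genes, 7 were called under 15 of 16 alternatives and 8 with equal totals, where SMC2 was called higher. NCAPD2P1 had a log2 change between 3.8 and 3.93, NCAPH between -0.63 and -0.53, and NCAPD2 between -0.34 and -0.24. The number of genes called over the table was between 8536 (limma without a variance trend) and 9818 over all alternatives, against 9767, with 8756 to 9818 when 1 library was left out, 9582 with edgeR and 8778 with DESeq2. Same-numbered libraries did not deviate together (correlations -0.338, -0.00827 and -0.0685), and those of different numbers had correlations from -0.269 to 0.317. With 3 libraries per group, these correlations cannot show whether replicates were prepared in pairs. A replicate block gave 9141 called genes, 7 of the 9 genes among them. The control range of levels, highest over lowest, was 4.36-fold per kilobase of transcript and 3.45-fold per kilobase of coding length. The ratio of NCAPD2P1 to NCAPD2 per kilobase of transcript was 4.71% in siNT and 85.0% in siYAP, which differs from the plain ratio by the lengths alone. With 1 library left out the plain ratio was 1.505% to 1.555% in siNT and 27.3% to 27.8% in siYAP. Depth limits NPSR1-AS1 and ASGR2, which had a few reads per siNT library.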
